A study of Saccharina japonica with 2 samples.

Results

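Of the 70288 unigenes of the kelp Saccharina japonica that carried at least 1 read, 7 were described here as protein kinases or protein phosphatases. A unigene is a contig left after the reads of both libraries had been assembled and redundant sequences merged. The 7 were taken by wording alone from the 1998 annotated unigenes at hand, which are only a part of the study's annotated list. Kinases and phosphatases outside that part could not be found. Taken were those whose description named a protein kinase, a protein phosphatase or a kinase that depends on cyclin or calcium. An eighth match, Unigene12114, was left out because the study lists it as a homologue of the blue light (BL) receptor phototropin. The words for chloroplast and mitochondrial proteins, which would have removed a unigene, removed none. The group held 6 protein kinases and 1 protein phosphatase. They were 2 cyclin-dependent kinases (Unigene11374 and Unigene14739), a calcium-dependent protein kinase (Unigene11601), a serine/threonine-protein kinase (Unigene11403), a predicted unusual protein kinase (Unigene10888), a unigene described only as protein kinase (Unigene10164) and a serine/threonine-protein phosphatase (Unigene10452).

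Vegetative sporophyte tissue was cultured in darkness for 4 h and then kept for 2 h in sterilized seawater, in darkness or under BL. The labels call the material mature thalli, and the methods of the study call it juvenile sporophytes from cultivated rafts. No genotype, strain or age was given. For each treatment 10 individuals were pooled into 1 sequenced library of polyadenylated RNA, so that no replicate measures the variation between plants, and each test compares 1 library with the other rather than the treatments. In such pooled tissue, fewer cells of a type and less RNA per cell cannot be told apart. No list of markers for this tissue was used, and the tissue label was not checked.

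Protein kinases transfer the terminal phosphate of ATP to serine, threonine or tyrosine residues of other proteins, and protein phosphatases take it off again, so that together they set the phosphorylation state through which cells relay signals. Cyclin-dependent kinases act with a cyclin partner and drive the cell division cycle or transcription. Calcium-dependent protein kinases, known from plants and several groups of protists, join a kinase domain to a calcium-binding domain and respond to calcium directly. In land plants the BL receptor phototropin is itself a serine/threonine kinase.

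The dark library held 10905306 uniquely aligned reads and the BL library 11410538. All 7 unigenes had reads in both, from 17 to 2375 in darkness and from 34 to 1423 in BL. They were 456 to 2634 bp long, with GC contents from 50.19% to 62.94% and no unknown bases. Their median length of 1246 bp and median GC content of 58.7% compared with 355 bp and 52.3% over all unigenes, and with 856.5 bp and 57.6% over the annotated unigenes at hand. Differences are given as the log2 of BL over dark RPKM (uniquely aligned reads per kilobase of unigene, scaled to the size of the library), with the exact Clopper-Pearson 95% interval from the reads. These intervals cover counting error only. A unigene was called up- or downregulated by the thresholds of the study, namely 500 bp or more in length, P up to 0.05, a false discovery rate (FDR) up to 0.001 and a log2 ratio of 1 or more in either direction. P was computed by the Audic-Claverie test on reads and the FDR by Benjamini-Hochberg adjustment over all 70288 unigenes.

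The group did not move in 1 direction. The calcium-dependent protein kinase was upregulated 9.77-fold in BL, the predicted unusual protein kinase was downregulated 2.52-fold, and 5 unigenes were not past all thresholds. Of the 6 unigenes of at least 500 bp, 1 was thus upregulated and 1 downregulated. Over all 23163 unigenes of that length 33.5% were upregulated and 16.6% downregulated, and over the 1554 annotated ones at hand the shares were 37.8% and 9.97%. The median log2 ratio of the 7 was -0.33, beside 0.42 over the 61001 unigenes with reads in both libraries and 0.56 over the annotated ones. The ratio was above 0 for 3 of the 7 and below it for 4, while 58.1% of the 61001 unigenes were higher in BL. Without the fold threshold the 6 of at least 500 bp all passed the FDR threshold, 2 higher and 4 lower in BL. Of all unigenes of that length 68.7% did. These FDRs rest on counting error alone. With a coefficient of variation of 0.2 between samples assumed in edgeR's exact test, Unigene11601 alone stayed past that threshold. The share of all unigenes that stayed past it was not counted. The scaling of the libraries bears on which ratios passed the fold threshold. Of the scalings tried, only removal of the GC trend turned directions, as given below. TMM factors lowered every log2 ratio by 0.29, after which 2 of the 6 were downregulated, beside 23.6% of all unigenes of at least 500 bp. Scaling by median-of-ratios size factors lowered the ratios by 0.42, after which 3 of the 6 were, beside 27.4%.

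**Figure D1:**
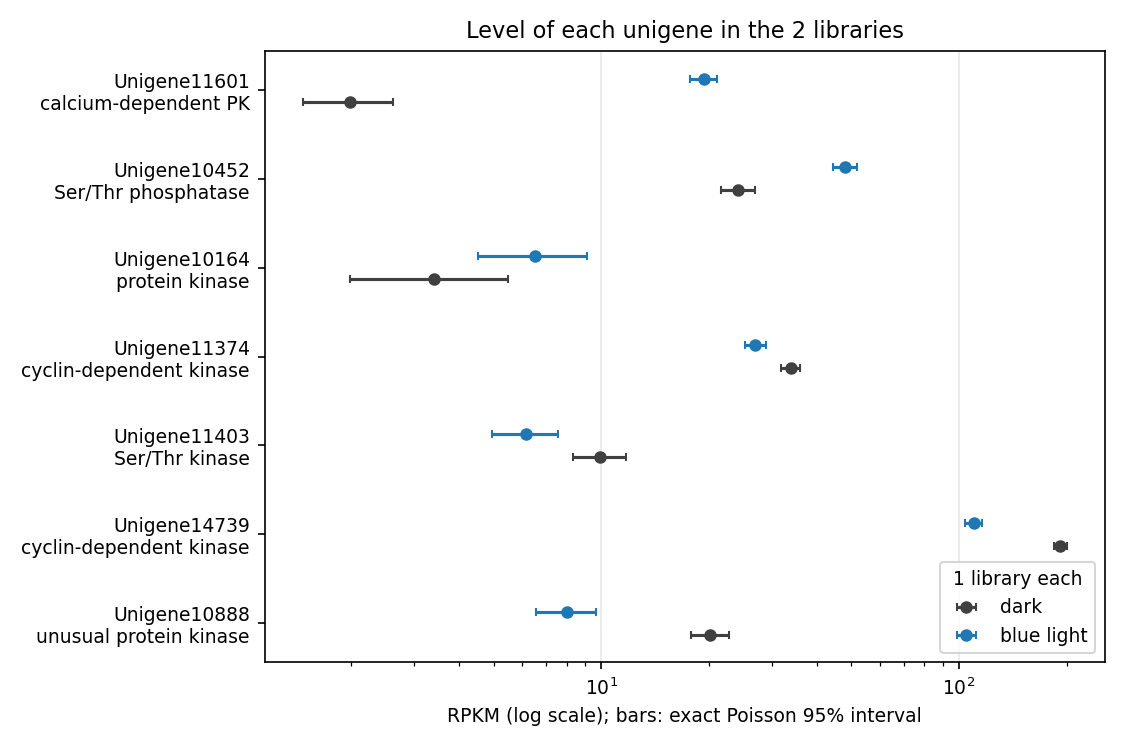
Level of each of the 7 unigenes in RPKM (log axis) in the dark library (grey) and the BL library (blue), 1 library each, with exact Poisson 95% intervals from the reads. The calcium-dependent protein kinase Unigene11601 went from the lowest level of the 7 in darkness, 1.98 RPKM, to 19.3 RPKM in BL, and the cyclin-dependent kinase Unigene14739 was the highest in both.

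In darkness the levels of the 7 spanned from 1.98 to 192 RPKM and in BL from 6.16 to 110 RPKM. The cyclin-dependent kinase Unigene14739 was highest in both libraries. In darkness it was followed by Unigene11374, the phosphatase Unigene10452, the unusual kinase Unigene10888, the serine/threonine kinase Unigene11403, Unigene10164 and the calcium-dependent kinase Unigene11601. The exact Poisson intervals of neighbours in this order overlapped for Unigene10452 and Unigene10888 and for Unigene10164 and Unigene11601. In BL the order was Unigene14739, Unigene10452, Unigene11374, Unigene11601, Unigene10888, Unigene10164 and Unigene11403, where the intervals of the last 3 overlapped between neighbours. Thus 5 of the 7 stood at another place in BL than in darkness. Summed over the 7, the reads amounted to 0.0380% of the dark library and 0.0320% of the BL library. Unigene14739 alone held 57.3% of these reads in darkness and 39.0% in BL, and without it the sums were 0.0162% and 0.0195%.

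The calcium-dependent protein kinase Unigene11601 (2270 bp, 56.83% GC) had 49 dark reads and 501 BL reads. Its level was 1.98 RPKM in darkness (Poisson interval 1.46 to 2.62) and 19.3 RPKM in BL (interval 17.7 to 21.1), so that the intervals lay far apart. This unigene stood above 34.8% of all unigenes by RPKM in darkness and above 80.0% in BL. The log2 ratio was 3.29 (interval 2.86 to 3.74) with an FDR of 1.79e-89, a 9.77-fold difference (interval 7.28 to 13.4). Among unigenes of at least 500 bp with reads in both libraries, 93.8% had a lower ratio. The 49 dark reads were spread over 86.43% of the unigene and the BL reads over 98.94%. It was upregulated under every scaling tried, with a ratio of 2.87 by median-of-ratios size factors and 2.56 after removal of the GC trend. The call was lost when a coefficient of variation of 0.4 between samples was assumed in edgeR's exact test, which gave an FDR of 0.00875.

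The predicted unusual protein kinase Unigene10888 (1215 bp, 60.00% GC) was the unigene downregulated in BL. The wording is the one that databases of orthologous groups give to the ABC1 or UbiB family, whose members in bacteria and yeast take part in ubiquinone synthesis. It had 267 reads in darkness and 111 in BL, which correspond to 20.2 RPKM (interval 17.8 to 22.7) and 8.01 RPKM (interval 6.59 to 9.64). The level in darkness was the higher one, without overlap of the intervals. The log2 ratio of -1.33 (interval -1.66 to -1.01) had an FDR of 7.56e-17 and corresponds to a level 2.52-fold higher in darkness (interval 2.01 to 3.17). Reads covered 98.44% of the unigene in darkness and 99.09% in BL. The call held with TMM factors (log2 -1.62) and with size factors by median of ratios (log2 -1.75). In edgeR's exact test it was lost at an assumed coefficient of variation of 0.2 (FDR 0.00961) and of 0.4 (FDR 0.28).

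The cyclin-dependent kinases, which share a description but not a length, both had fewer reads in BL. Unigene14739 (1135 bp, 54.27% GC) went from 2375 to 1423 reads, or from 192 RPKM (interval 184 to 199.8) to 110 RPKM (interval 104 to 116). It stood above 97.9% of all unigenes in darkness and above 96.7% in BL. Its log2 ratio of -0.80 (interval -0.90 to -0.71) was past the FDR threshold, at 8.25e-63, but not past the fold threshold. With TMM factors it was -1.09 and with median-of-ratios size factors -1.22, and the unigene was then downregulated. Unigene11374 (2634 bp, 50.19% GC) had 971 dark reads and 811 BL reads, or 33.8 and 27.0 RPKM. Its log2 ratio of -0.33 (interval -0.46 to -0.19, FDR 6.49e-06) was closer to 0 than that of Unigene14739, and the intervals of the ratios did not overlap. With the GC trend removed the ratio of Unigene14739 stayed at -0.80, and that of Unigene11374 was 0.14. Together both held 3346 dark reads and 2234 BL reads. Whether they are parts of 1 transcript was not examined, as no unigene sequences were used.

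The serine/threonine-protein kinase Unigene11403 (1281 bp, 58.70% GC), whose description names no family, had 139 reads in darkness and 90 in BL. Its level was 9.95 RPKM in darkness (interval 8.36 to 11.7) and 6.16 RPKM in BL (interval 4.95 to 7.57), again the higher one in darkness. The log2 ratio of -0.69 (interval -1.09 to -0.30, FDR 7.65e-04) did not pass the fold threshold. With median-of-ratios size factors it was -1.11 and the unigene was downregulated.

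The serine/threonine-protein phosphatase Unigene10452 (1246 bp, 59.79% GC) was the single phosphatase of the group. It had 328 dark reads and 683 BL reads, or 24.1 RPKM (interval 21.6 to 26.9) and 48.0 RPKM (interval 44.5 to 51.8). The BL level was 1.99-fold that in darkness (interval 1.74 to 2.28), and the FDR was 5.67e-25. The log2 ratio of 0.993 (interval 0.80 to 1.19) lay just short of the fold threshold, which its interval included. With TMM factors it was 0.71 and with median-of-ratios size factors 0.57, but it turned to -0.61 (FDR 4.49e-09) with the GC trend removed. Reads covered only 48.96% of this unigene in darkness and 52.89% in BL.

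Unigene10164 (456 bp, 62.94% GC), described as protein kinase without further detail, was the shortest and least read of the 7. It had 17 reads in darkness and 34 in BL, or 3.42 RPKM (interval 1.99 to 5.47) and 6.53 RPKM (interval 4.53 to 9.13), and these intervals overlapped. The log2 ratio was 0.93 (interval 0.05 to 1.87) with an FDR of 0.0537, so that neither its length nor its FDR met the thresholds. The lower end of the interval lay close to 0, and with so few reads the size of the difference was poorly determined.

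**Figure D2:**
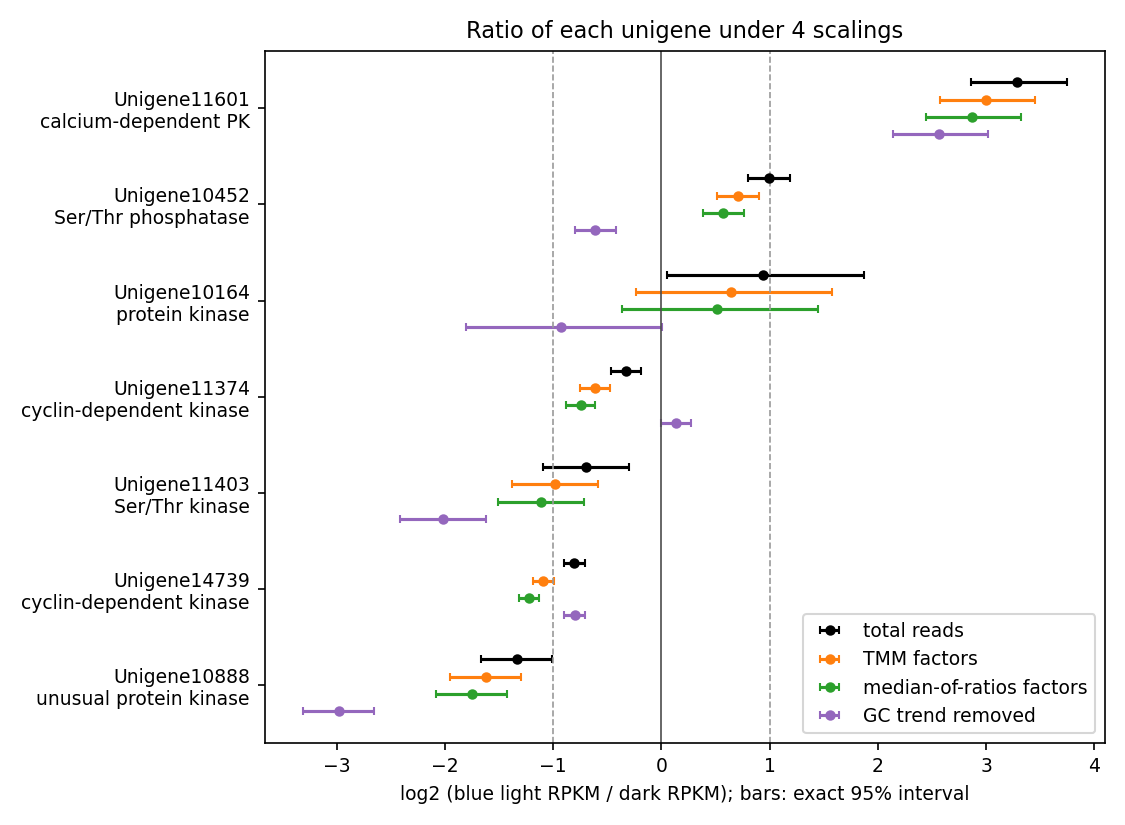
Log2 ratio of BL over dark RPKM of each unigene with its exact 95% interval, scaled by total reads (black), TMM factors (orange) or median-of-ratios size factors (green), and with the GC trend removed (purple). Dashed lines mark the fold threshold at -1 and 1. Unigene11601 lay above 1 under all 4, and Unigene10888 below -1.

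Among themselves the 7 differed beyond counting error. Of the 21 pairs that can be formed, the 95% intervals of the log2 ratios were separate in 17 and overlapped in 4. The overlapping pairs joined Unigene10164 with Unigene10452, and Unigene11403 with each of Unigene10888, Unigene11374 and Unigene14739. The calcium-dependent kinase did not overlap with any other of the 7. How often pairs of other unigenes are separate was not counted, so these numbers are not shown to be particular to the 7.

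The libraries differed in base composition, and the log2 ratio of a unigene moved with its GC content. The read-weighted GC content was 51.1% for the dark library and 54.2% for the BL library. In 20 equal classes of the unigenes with at least 50 reads and a read in each library, the median log2 ratio went from -1.07 in the class around 40.5% GC to 1.92 in that around 65.4% GC. Set in their own classes, the 7 spread widely. Unigene11601 stood above 90.1% of the 1713 unigenes with 56.67% to 57.92% GC, whose median log2 ratio was 0.91. Unigene10888 stood above 2.22% and Unigene10452 above 34.7% of the 1713 unigenes with 59.2% to 60.51% GC, where the median was 1.62. Unigene11403 stood above 8.94% of its class (median 1.28), Unigene14739 above 19.7% (median 0.07), Unigene10164 above 23.1% (median 1.86) and Unigene11374 above 57.0% (median -0.49). With the trend removed, 2 of the 7 were higher in BL and 5 were lower, where 55.3% of the 61001 unigenes were higher. Unigene11403 and Unigene10888 were then downregulated, at -2.02 and -2.98, and Unigene11601 upregulated, beside 15% and 22% of all unigenes of at least 500 bp. The log2 ratios of Unigene10452 and Unigene10164 then turned negative, to -0.61 and -0.93, and that of Unigene11374 became positive, at 0.14. The part of base composition in the differences between the libraries was not tested.

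**Figure D3:**
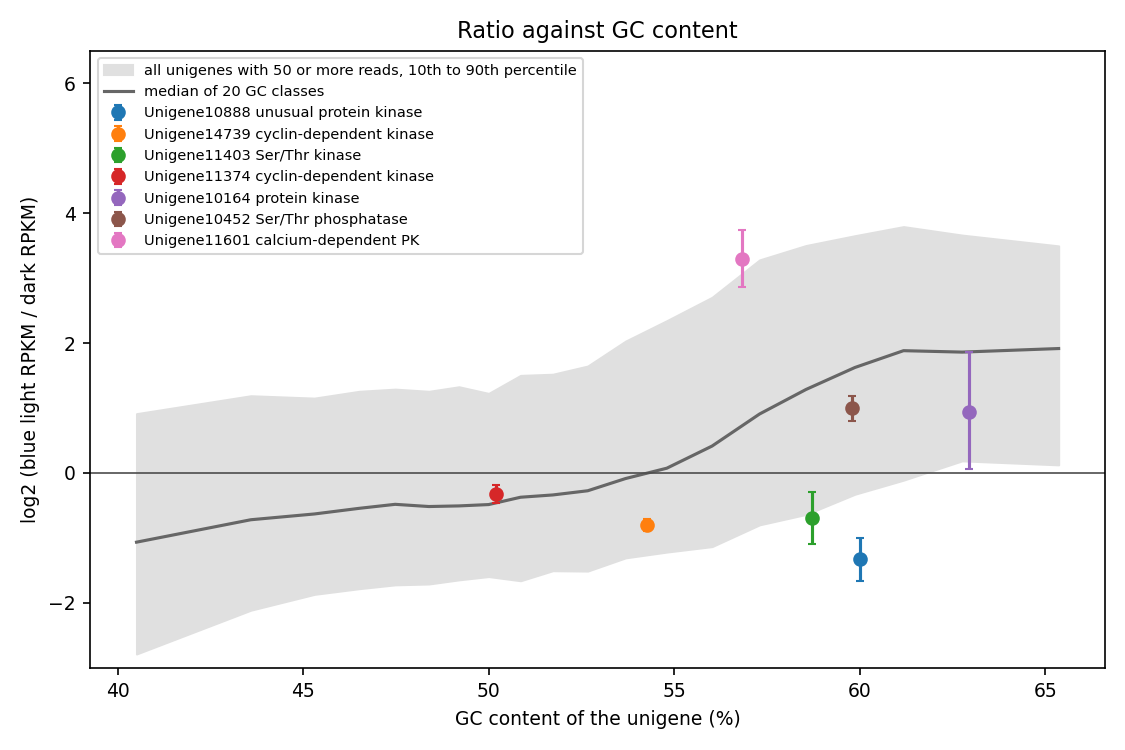
Log2 ratio of BL over dark RPKM against GC content of the unigene in per cent. The line joins the medians of 20 GC classes of all unigenes with at least 50 reads and a read in each library, the shaded band spans their 10th to 90th percentiles, and points are the 7 unigenes with exact 95% intervals. Unigene11601, at 3.29, lay at the upper edge of the band, and Unigene10888, at -1.33, below it.

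The share of the length that carried reads was a readout which played no part in the choice of the unigenes. In darkness 4 of the 7 were covered over at least 95% of their length, and in BL 6 were. The coverage was higher in BL for 6 of the 7, as it was for 59.2% of the 61001 unigenes. Coverage was read beside that of all unigenes whose length and reads in the same library were within 0.8 to 1.2 times those of the unigene. The phosphatase Unigene10452 stood apart here. The 533 unigenes like it in darkness had a median coverage of 98.3%, and only 6 of them, itself included, were covered over 48.96% or less. In BL it was the least covered of 330 such unigenes, whose median was 98.9%. The RPKM of this unigene is therefore an average over a length of which a large part held no uniquely aligned read. The coverage of Unigene11601 in darkness was above the median of 67.4% over 45 unigenes of like length and reads. Computed over the covered length in each library, the log2 ratio of Unigene10452 was 0.88 and that of Unigene11601 was 3.09.

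**Figure D4:**
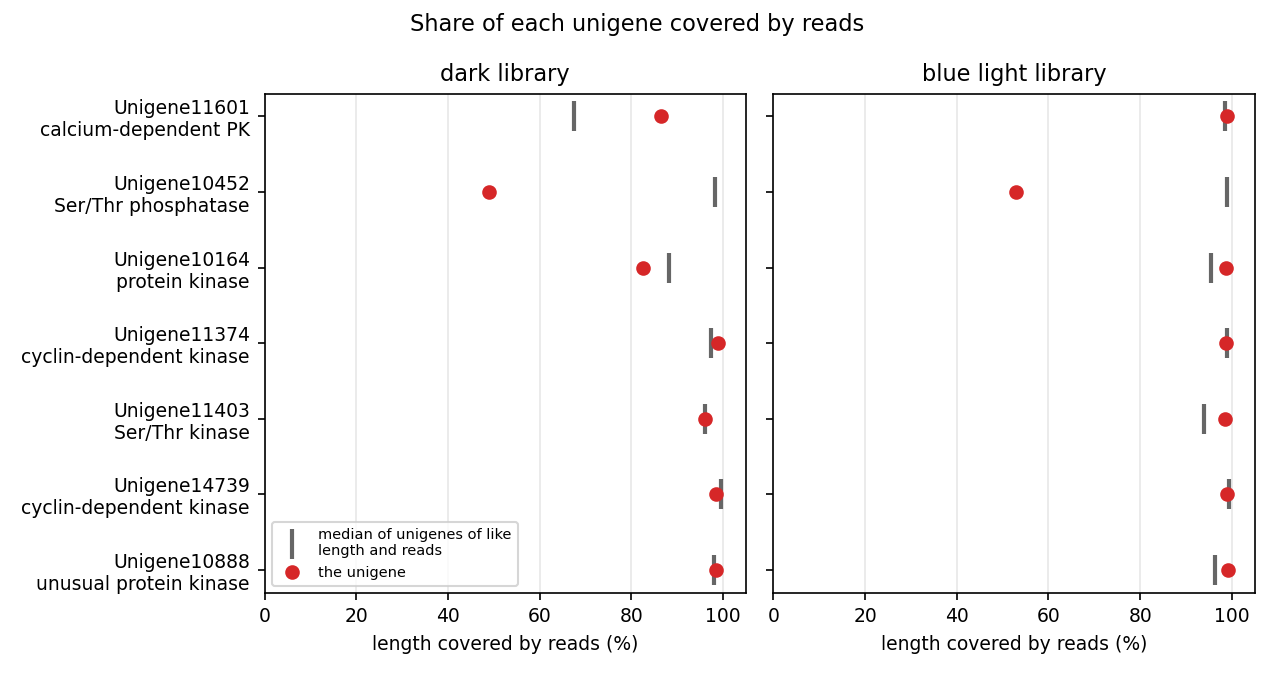
Percentage of the length of each unigene covered by reads (red points) in the dark library (left) and the BL library (right), beside the median coverage of unigenes of like length and reads in that library (grey bars). The phosphatase Unigene10452 was covered over 48.96% and 52.89% of its length, beside medians of 98.3% and 98.9%.

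The annotation at hand also names kinases and phosphatases in other words. Protein kinases and phosphatases described in other terms numbered 7, unspecified kinases 28 and unspecified phosphatases 8. Of these 43 unigenes 33 were at least 500 bp long, of which 15 were upregulated, 2 were downregulated and 16 were neither, beside 37.8% upregulated and 9.97% downregulated among the annotated unigenes of that length and 33.5% and 16.6% among all. Their median log2 ratio was 0.85, beside -0.33 for the 7, with 32 higher and 11 lower in BL, where 58.1% of the 61001 unigenes with reads in both libraries were higher. By TMM factors as by median-of-ratios size factors 13 were upregulated and 3 downregulated. Of all unigenes of at least 500 bp 23.6% and 27.4% were then downregulated. Their upregulated share under these scalings was not counted, so the 13 cannot be set against it. With the GC trend removed 7 were upregulated and 7 downregulated, with a median of -0.16, beside 22% and 15% of all unigenes of that length. Whether these shares differ from those of the 7 was not tested.

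Among those described in other terms, 2 were upregulated, 1 was downregulated and 2 of the 5 long enough were neither. Over all unigenes of at least 500 bp 33.5% were upregulated and 16.6% downregulated. The highest ratio was that of the stress kinase Unigene11937 (836 bp, 60.89% GC), which went from 56 reads in darkness to 638 in BL (log2 3.44, interval 3.05 to 3.87, FDR 1.11e-118). The lowest was that of a serine/threonine phosphatase, Unigene10873 (1806 bp, 57.48% GC), which went from 1389 reads to 249 (log2 -2.55, interval -2.75 to -2.35, FDR 1.70e-201). The level of this phosphatase was thus 5.84-fold higher in darkness, whereas that of the phosphatase Unigene10452 was higher in BL. With the GC trend removed both were lower in BL, Unigene10873 at -3.51 and Unigene10452 at -0.61. Unigene11937 and Unigene10873 kept their direction and call under all 4 scalings.

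The unspecified kinases included 11 upregulated and 1 downregulated unigene among 21 of at least 500 bp, beside 33.5% and 16.6% of all unigenes of that length. With the GC trend removed these counts were 5 and 3, beside 22% and 15%. Of those with at least 10 reads in each library, Unigene12983 had the highest ratio, with 18 reads in darkness and 147 in BL (log2 2.96, interval 2.25 to 3.76). The lowest was that of Unigene11686, with 3319 and 1138 reads (log2 -1.61, interval -1.71 to -1.51). Of 7 unspecified phosphatases of that length 2 were upregulated and none downregulated, beside the same 33.5% and 16.6%. With the GC trend removed 1 of them was upregulated and 2 were downregulated, beside 22% and 15%. The highest ratio was that of Unigene10633, whose reads went from 49 to 431 (log2 3.07, interval 2.64 to 3.53). Unigene14187 had the lowest, with 66 and 51 reads (log2 -0.44, interval -0.99 to 0.11, FDR 0.138).

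A further 13 unigenes, all of at least 500 bp, had other descriptions that contain kinase or were pyrophosphatases. Most were kinases of small molecules, but the wording also took in phosphoenolpyruvate carboxykinase and a polynucleotide kinase. Of the 13 unigenes 5 were upregulated and 1 was downregulated, beside 33.5% and 16.6% of all unigenes of that length. Their median log2 ratio was 0.71. With the GC trend removed it was -0.43, and 2 were upregulated and 2 downregulated, beside 22% and 15%. Phosphoenolpyruvate carboxykinase (Unigene11200), an enzyme of gluconeogenesis, went from 659 reads to 6617, which is 9.60-fold by RPKM (log2 3.26, interval 3.15 to 3.38). Adenylate kinase (Unigene14505), which interconverts adenine nucleotides, had 272 dark and 81 BL reads and was downregulated (log2 -1.81, interval -2.19 to -1.45).

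The cyclins and the kinase anchoring protein, as possible partners of the kinases, were thinly read. A cyclin (Unigene12444, 666 bp) had 19 dark and 54 BL reads and was upregulated (log2 1.44, interval 0.66 to 2.28, FDR 2.76e-04), though not under the other 3 scalings. Its ratio was -0.43 with the GC trend removed. A unigene similar to A-kinase anchoring protein (Unigene10712, 440 bp) had 46 and 60 reads (log2 0.32, interval -0.26 to 0.90, FDR 0.358), and its ratio was -0.10 by median-of-ratios size factors and -1.33 with the GC trend removed. The third of this list, a cyclin H, had fewer than 10 dark reads. By total reads the upward ratio of the cyclin stood beside lower BL levels of both cyclin-dependent kinases. With the GC trend removed the cyclin was at -0.43, Unigene14739 at -0.80 and Unigene11374 at 0.14. Whether this cyclin is a partner of either kinase was not tested.

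The study lists 10 unigenes as casein kinase 2, a serine/threonine kinase of the circadian clock in land plants. Only Unigene12607 of these had a description at hand, Ras-associated protein, so the wording could not be tried on the others. Of the 7 casein kinase 2 unigenes with at least 500 bp, 2 were upregulated and none downregulated, beside 33.5% and 16.6% of all unigenes of that length. The median log2 ratio was -0.18 over the 9 with reads in both libraries. With the GC trend removed 1 was upregulated and 1 downregulated, beside 22% and 15%. The ratios ran from -0.60 (Unigene21867, 510 dark and 353 BL reads) to 2.38 (Unigene48109, 14 and 76 reads). The study lists Unigene48109 as the beta polypeptide. The phototropin homologue Unigene12114, annotated as protein kinase in the general list, had 57 dark and 174 BL reads and was upregulated (log2 1.54, interval 1.11 to 2.00), at -0.16 with the GC trend removed.

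**Figure D5:**
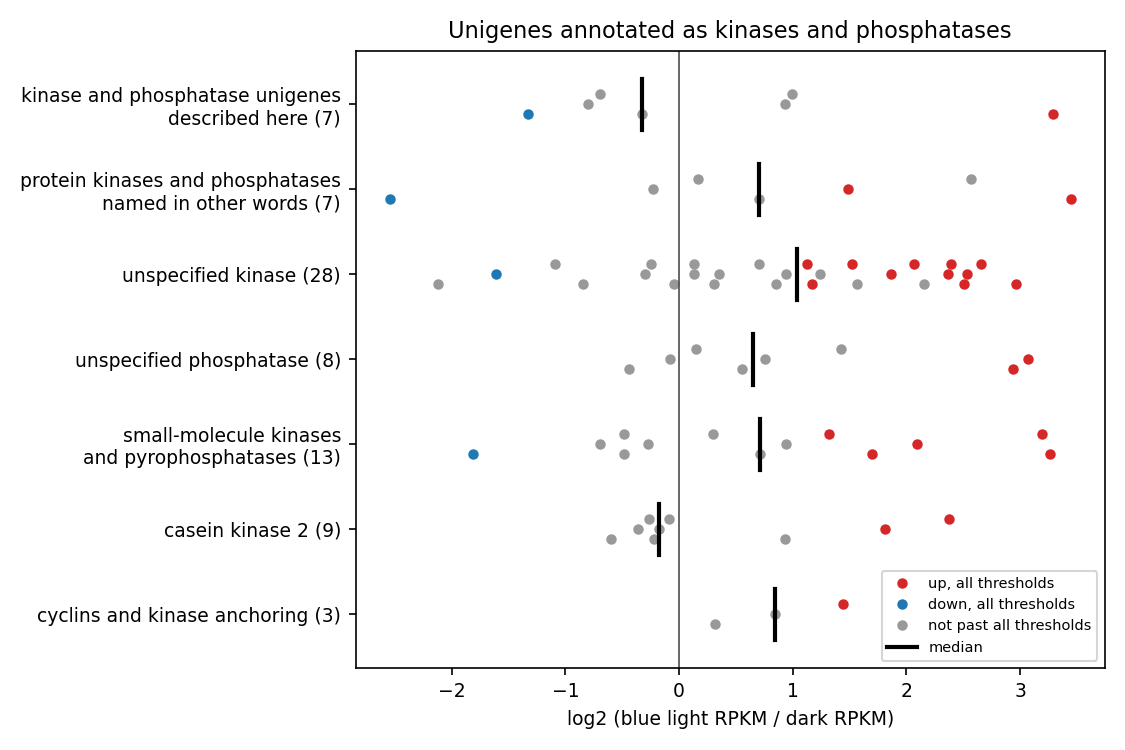
Log2 ratio of BL over dark RPKM of the 7 unigenes and of the related lists, with the number of unigenes with reads in both libraries in brackets. Each point is a unigene, coloured by whether it was past all thresholds, and black bars are medians. The median was -0.33 for the 7 and -0.18 for casein kinase 2, and above 0 in the other lists, of which unspecified phosphatases alone kept a positive median, 0.25, with the GC trend removed.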

How the data were processed

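Polyadenylated RNA from 1 pool of 10 individuals per treatment was sequenced on the Illumina platform, 1 library each. The authors filtered out adaptors, empty reads and those with over 5 unknown bases, assembled unigenes with SOAPdenovo and merged those of both libraries. The aligner and its version are not given in the sources used here. The deposited counts are the authors' unnormalized numbers of uniquely aligned reads per unigene. The deposited percent values are, per the file headers, the covered percentage of the unigene length and the percentages of G and C and of unknown bases. Unigenes not listed for a library were set to 0, which allows up to 3 reads.

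RPKM used each library's uniquely aligned reads as total. The 2-sided Audic-Claverie test had the observed count in both tails. With 1 library per treatment a quasi-likelihood fit has no residual degrees of freedom. Alternatives were TMM factors and an exact test with assumed coefficients of variation of 0.2 and 0.4 (edgeR 4.0.16), median-of-ratios size factors (DESeq2 1.42.0), Benjamini-Yekutieli adjustment, Fisher's exact test, dropping the length minimum, at least 10 reads over both libraries, an absolute log2 ratio of at least 2, a pseudocount of 1 RPKM and removal of the GC trend, a line through the medians of 20 GC classes. RPKM over the covered length was added after the data had been seen. The test, the intervals and the trend were tested on simulated Poisson counts. These hold counting error only, so variation between plants was not part of that check. Python 3.11.15 with scipy 1.17.1 was used. Members, lists and alternatives were chosen with earlier results of these data known. All 7 members are named, as are, of each related list, the highest and lowest ratio among those with 10 or more reads per library, and Unigene12114. The annotation was taken from the part of the study's list at hand, and unigene lengths in it equalled the deposited ones for all 7.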

Additional observations from a re-analysis of the deposited data

How the results depend on the processing

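No paired analysis was possible because each treatment had 1 library, and for the same reason no library could be left out. Of 84 values of the 7 unigenes under the alternatives, 73 kept their direction and whether all thresholds together were passed. Alternatives that changed only the test, the adjustment or the thresholds used the main ratio, so direction could not change there. A value could also lose its FDR and still count as kept, as did that of Unigene14739 at an assumed coefficient of variation of 0.2. For the pseudocount and the covered length no FDR was computed. The count of upregulated members was 1 except at an assumed coefficient of variation of 0.4, where it was 0. The count of downregulated members was 2 with TMM factors, 3 with median-of-ratios size factors and 2 with the GC trend removed. It was 0 at an assumed coefficient of variation of 0.2 or 0.4 and 0 with an absolute log2 ratio of at least 2. The median log2 ratio of the members was -0.61 with TMM factors, -0.75 with median-of-ratios size factors and -0.80 with the GC trend removed. Over the 61001 unigenes with reads in both libraries the median, 0.42 by total reads, also fell. It was 0.13 with TMM factors and 0.20 with the GC trend removed, and median-of-ratios size factors lowered every ratio by 0.42. Removing the trend also turned the ratios of Unigene10164 (-0.93), Unigene10452 (-0.61) and Unigene11374 (0.14). Beyond the construction of these alternatives, the cause was not tested. Of the related lists' counts, 82 of 120 stayed within 1.5 times. No spread between pools could be measured, and with 17 to 90 reads in the lower library the intervals of Unigene10164, Unigene11403 and Unigene11601 are wide.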
